A study of Mus musculus with 5 samples.

Results

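Genes of the oligodendrocyte lineage and of myelin were measured with a single-colour oligonucleotide array (Cy5) in the striatum of 5 FVB mice, all male and 12 months old, with 2 technical repeats per mouse. Every animal had the transgene of a Huntington's disease (HD) line, a fusion of GFP and HTT exon 1 (human, 84 CAG repeats) under the human ubiquitin promoter. The 3 mice called HD_miR196a came from a cross with a miR-196a line and also had a miR-196a precursor transgene under that promoter, and the 2 mice called HD did not. No mouse without the HD transgene was analysed here, and both transgenes are driven by a promoter that is not specific to a cell type. The labels describe better motor function in the HD_miR196a mice than in the HD mice. The comparison asks whether this gene set differs in level when miR-196a is overexpressed in HD mice. The 34 genes and the gene lists set beside them were chosen by name, with earlier results of these data known. Of the 34 genes, 32 had a probe among the 17710 named genes of the array. The levels of Nkx2-2 and Nkx6-2, a pair of homeobox factors of the lineage, were not analysed here. Their promoter sequences are among those counted below. For each gene the probe with the highest mean over the 5 mice was used, and 6 genes had more than 1 probe.

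Oligodendrocytes wrap axons in myelin, a stack of membrane rich in galactolipids and in a few structural proteins. They arise from precursors that carry the receptor Pdgfra and the proteoglycan Cspg4 (NG2). Olig1, Olig2 and Sox10 set the lineage, and Myrf switches on the myelin genes as cells mature. In the striatum most of these cells lie in the fibre bundles that cross the tissue. The amount of white matter in a dissected piece can therefore bear on such genes, but it was not measured and its part was not tested. Fewer oligodendrocytes and less RNA per oligodendrocyte cannot be told apart in bulk RNA.

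The extra transgene in the HD_miR196a mice encodes the microRNA below, printed because it is the only stated genetic difference between the groups, with its seed (bases 2 to 8) in capitals. RefSeq places this mature sequence at 2 sites of the mouse assembly GRCm38.p6, chr11:96265187-96265208 and chr15:102973365-102973386, both on the plus strand. The labels do not say which of them the transgene carries.
mmu-miR-196a-5p: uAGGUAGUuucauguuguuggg

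The 2 windows below are the 250 bases before the RefSeq start site of Mobp and of Opalin. They are shown because, among the structural myelin genes, Mobp had the largest and Opalin the smallest difference between the groups while both followed the same pattern over the mice of each group. Capitals mark ACAAAG or its reverse complement, the core of the motif known for SOX factors. Mobp lies at chr9:120149492-120149741 on the plus strand and Opalin at chr19:41077114-41077363 on the minus strand, both in GRCm38.p6.
Mobp: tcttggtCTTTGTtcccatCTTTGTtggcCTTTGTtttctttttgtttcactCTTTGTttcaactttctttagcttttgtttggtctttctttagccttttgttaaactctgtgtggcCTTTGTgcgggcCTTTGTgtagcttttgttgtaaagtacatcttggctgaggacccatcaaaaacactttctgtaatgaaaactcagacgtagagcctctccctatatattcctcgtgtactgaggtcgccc
Opalin: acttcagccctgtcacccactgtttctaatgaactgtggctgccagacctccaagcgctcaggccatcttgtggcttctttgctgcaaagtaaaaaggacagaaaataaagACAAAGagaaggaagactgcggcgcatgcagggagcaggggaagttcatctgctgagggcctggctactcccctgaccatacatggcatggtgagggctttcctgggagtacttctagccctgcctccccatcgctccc

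The Mobp window held ACAAAG 6 times and the Opalin window 1 time. These windows were picked by the difference between the groups, and a relation between matches and differences was not tested. RefSeq start sites were matched for 24 of the 34 genes, with 37 windows of 250 bases in all, some of which overlap. On either strand, ACAAAG occurred in 10 of them (27.0%), against 16.5% of 32851 windows of all genes. AACAAT, a second SOX core, occurred in 4 (10.8%, against 9.42%). CTGGNAC, known for MYRF, was in 9 (24.3%, against 16.1%), and CAGATG, an E-box of the kind that OLIG2 binds, was in 10 (27.0%, against 14.4%). Overlaps between motifs were not removed, and a match describes letters in a window, not a bound site.

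Deposited median intensities ranged from 160.0 to 166.3 in the HD_miR196a mice and from 184.3 to 185.6 in the HD mice, and quantile normalization removed this offset. All levels and differences below are on the resulting log2 intensity scale. Mouse 1 of each group stood apart on markers of cortical projection neurons: 7 of 9 measured genes, Tbr1, Neurod6 and Slc17a7 among them, were lower in these mice than in every other mouse, and Cux2 and Lamp5 were not. Summed over that list, the intensity came to 12252 for HD_miR196a mouse 1 and 11444 for HD mouse 1, against 34177 and 26167 in HD_miR196a mice 2 and 3 and 36541 in HD mouse 2. Genes of medium spiny neurons, the main neuron of the striatum, were present in every mouse, with Penk at 14.73 to 15.25 and Drd1 at 12.69 to 13.11. None of the oligodendrocyte and myelin genes was at the floor in any mouse. Only Gjc3, Gal3st1 and Aspa had a mean below 8.31, a measure of background: 95th percentile over 544 probes for olfactory receptors.

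Most oligodendrocyte and myelin genes were measured at a higher mean in HD_miR196a mice, and none passed the test. A mean above that of the HD mice was seen for 30 of the 32 genes, where 48.9% of all genes on the array had one. The median difference, HD_miR196a minus HD, was 0.24 over the 32 genes and -0.0040 over all genes. Limma called 0 of the 32 genes at a Benjamini-Hochberg adjusted p under 0.05 over 26423 probes, as it did on the whole array (0.0%). At an unadjusted p under 0.05 there were 3 of the 32 (9.38%), Car2, Mbp and Lpar1, against 3.71% of all genes and 4.16% of all probes. That count was 2 with median centring and 0 without scaling, where 3641 of the 26423 probes had an unadjusted limma p under 0.05. It was 0 with HD_miR196a mouse 1 or mouse 2 left out, and 6 with HD_miR196a mouse 3 left out. All 3 HD_miR196a mice lay above both HD mice for 6 genes (18.8%), Mbp, Ermn, Fa2h, Car2, Lpar1 and Cspg4, against 10.0% of all genes, and the reverse was seen for none of the 32. Groups apart in either direction made up 20.7% of all genes. In the deposited intensities, without scaling, only Car2 and Lpar1 of these 6 genes stayed apart. The groups of Mbp, Ermn, Fa2h and Cspg4 then overlapped. The direction depends on the scaling for part of the genes: without scaling, 18 of 32 were higher, against 14.3% of all genes. The median of all genes then shifted to -0.21, and the 32 genes lay 0.23 above it, close to the 0.25 they lay above the median of all genes after quantile normalization.

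The spread between mice of 1 group was as large as the difference between the groups. HD mouse 1 exceeded HD mouse 2 for 32 of the 32 genes, with quantile normalization, with median centring and without scaling, where 53.4% of all genes did so after quantile normalization. The median gap between these 2 mice was 0.34, against 0.021 over all genes. Within HD_miR196a, mouse 1 was the highest of the 3 for 30 genes, against 37.2% of all genes. It was the highest of all 5 mice for each of the 29 genes outside the precursor list, and HD mouse 2 was the lowest of all 5 for 26 of the 32. Over all genes these shares were 23.2% and 22.8%. The ranks move with the scaling: HD_miR196a mouse 1 was the highest of all 5 for 30 of the 32 genes after quantile normalization, 24 after median centring and 16 without scaling, and HD mouse 2 was the lowest for 26, 25 and 17. The commonest order, held by 11 genes, was HD_miR196a mouse 1, HD_miR196a mouse 2, HD mouse 1, HD_miR196a mouse 3 and HD mouse 2, from high to low. Among all genes 1.94% had that order.

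**Figure D1:**
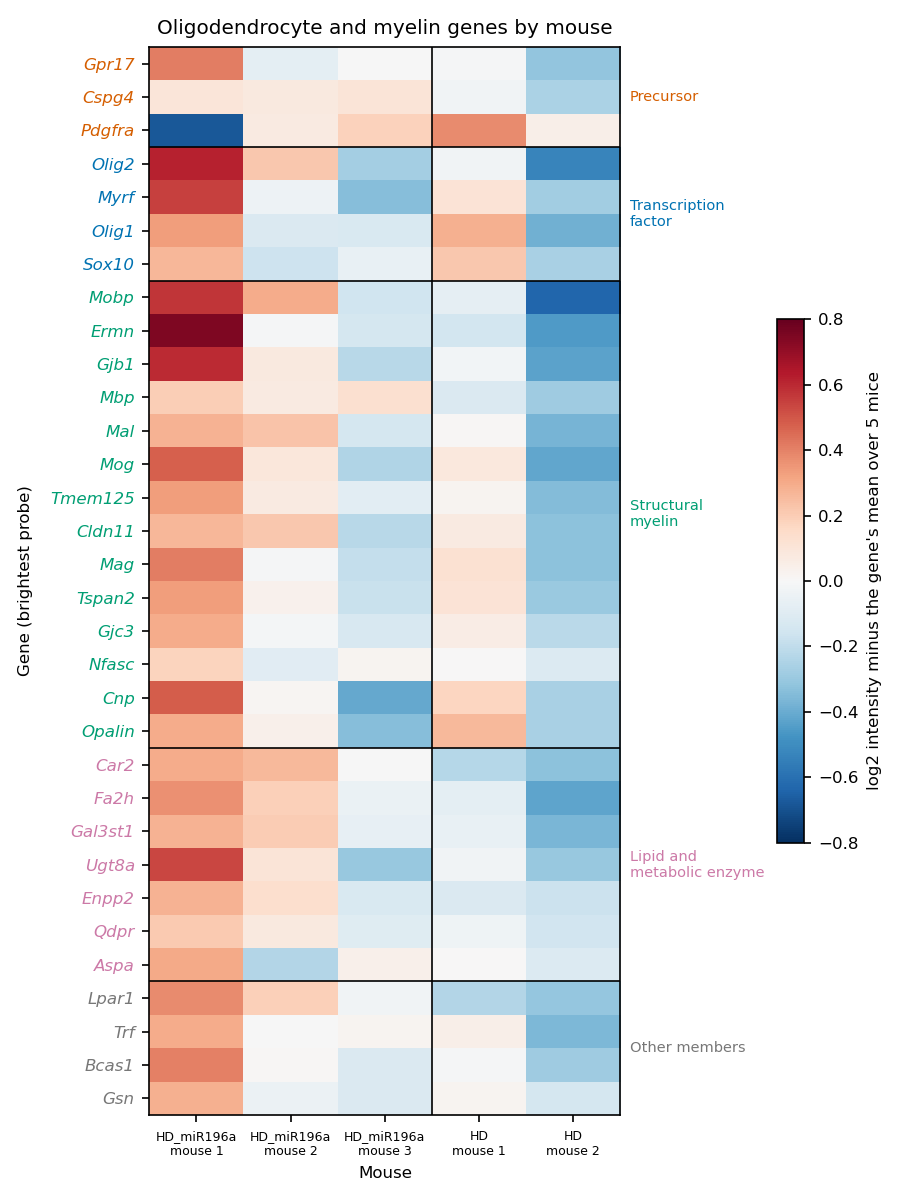
Heat map of the 32 measured genes (rows, grouped by role) in the 5 mice (columns); colour is the log2 intensity minus that gene's mean over the 5 mice. HD_miR196a mouse 1 is highest and HD mouse 2 lowest for most rows, and Pdgfra has its lowest value, 9.33, in HD_miR196a mouse 1.

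Structural genes of the myelin sheath had a median difference of 0.24, and 13 of 14 had the higher mean in HD_miR196a mice. Without scaling the median was 0.017 and 7 of 14 were higher, and without HD mouse 2 the count was 9 of 14. Mbp encodes myelin basic protein, which compacts the sheath. It measured 14.72, 14.60 and 14.65 in mice 1 to 3 of HD_miR196a, against 14.41 and 14.24 in mice 1 and 2 of HD, the order kept for all genes below. The groups did not overlap on this scale, and the narrow spread set Mbp apart from most of the list: its difference was 0.33 ± 0.10 (SE; 1.26-fold; 95% interval 0.058 to 0.60; limma adjusted p = 0.979). In the deposited intensities, HD mouse 1 (23880) lay above HD_miR196a mice 1 and 2 (23513 and 23786). Mobp, the myelin-associated oligodendrocyte basic protein, was at 11.78, 11.50 and 11.04 against 11.13 and 10.57. HD mouse 1 thus lay above HD_miR196a mouse 3, and the difference was 0.59 ± 0.29 (SE; interval -0.16 to 1.34; limma adjusted p = 0.979).

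Ermn, Opalin and Cnp are given in full because of their values. Ermn encodes ermin, a cytoskeletal protein of mature oligodendrocytes. It measured 11.50, 10.74 and 10.61 against 10.61 and 10.30. Its groups did not overlap, but HD_miR196a mouse 3 (10.606) and HD mouse 1 (10.605) were nearly equal, and the high value of HD_miR196a mouse 1 carried much of the difference of 0.50 ± 0.31 (SE).

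Cldn11 builds the tight junctions between myelin layers. Its values of 13.83, 13.78 and 13.34 overlapped with those of the HD mice, 13.63 and 13.23. Mal, a lipid raft protein of compact myelin, differed by 0.31 ± 0.20 (SE), and the gap junction gene Gjb1, which encodes connexin 32, by 0.38 ± 0.29 (SE). Mog and Mag, surface proteins at the outer and the inner face of the sheath, differed by 0.28 ± 0.27 and 0.17 ± 0.24 (SE). In these 5 genes the HD mouse with the higher value lay inside the range of the HD_miR196a mice.

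At the other end of the list, Opalin, a membrane protein of mature oligodendrocytes, measured 11.18, 10.92 and 10.55 against 11.14 and 10.63. Its difference was -0.00099 ± 0.26 (SE), and the 95% interval ran from -0.67 to 0.67. Cnp, an enzyme that keeps open cytoplasmic channels in myelin, was at 13.54, 13.07 and 12.64 against 13.22 and 12.79, a difference of 0.076 ± 0.31 (SE). The lowest mouse for Cnp belonged to the HD_miR196a group, as it did for Opalin. Tmem125, Tspan2, Gjc3 and Nfasc, which encode membrane, junction and adhesion proteins, had differences from 0.090 to 0.27, and their groups overlapped.

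**Figure D2:**
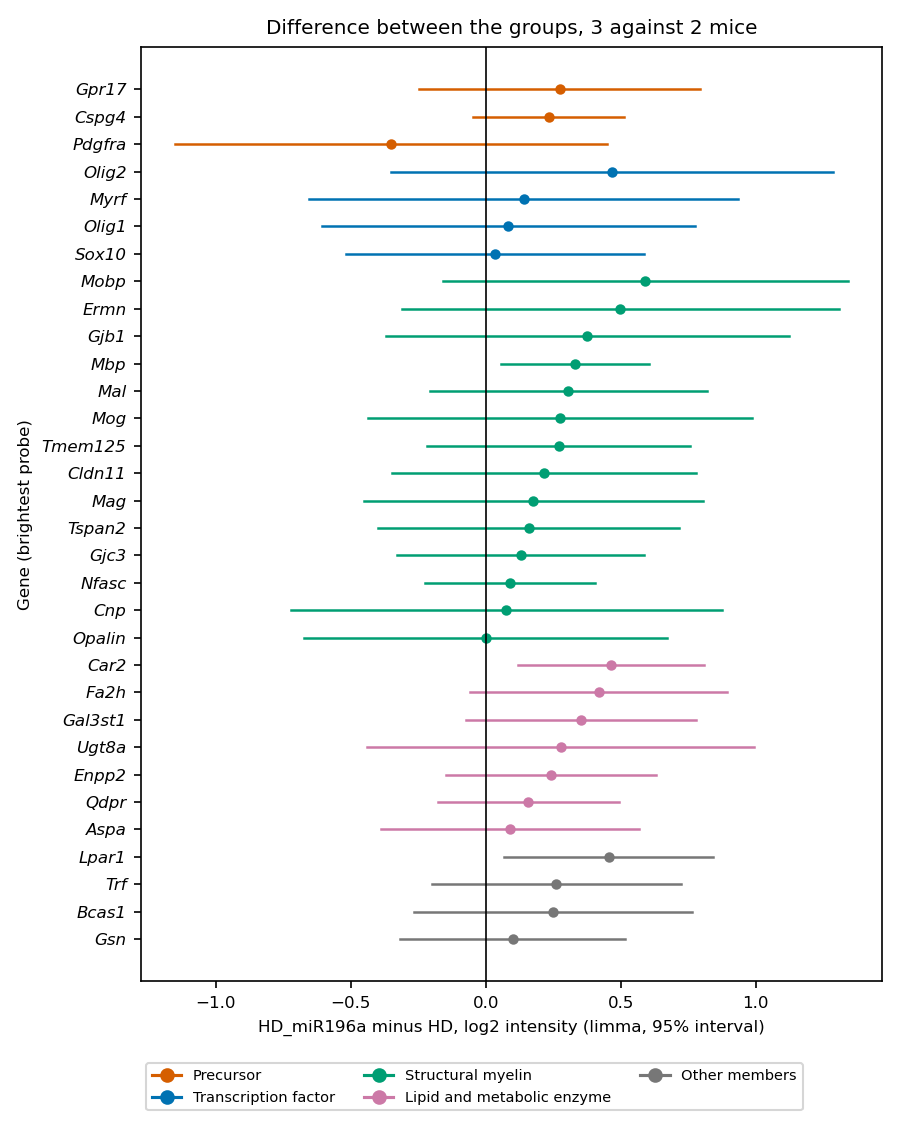
Difference in log2 intensity, HD_miR196a minus HD, for each gene (points) with its 95% interval from limma (lines), coloured by role. The intervals of Mbp, Car2 and Lpar1 lie above 0, those of the other 29 genes include 0, and none of the 32 had an adjusted p under 0.05.

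The transcription factors that set the lineage varied widely between mice, with a median difference of 0.11 between the groups. Olig2 measured 10.82, 10.42 and 9.93 against 10.18 and 9.68, a difference of 0.47 ± 0.31 (SE). Olig1, its close relative, was at 13.73, 13.28 and 13.27 against 13.67 and 13.01, which gave 0.083 ± 0.26. The gap between the HD mice was widest for Olig1 of all 32 genes, at 0.66.

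Sox10, a SOX factor needed for myelin gene expression, measured 11.33, 10.90 and 11.00 against 11.28 and 10.81, a difference of 0.033 ± 0.21 (SE). Myrf was at 9.58, 8.99 and 8.69 against 9.14 and 8.75, a difference of 0.14 ± 0.30. All 4 factors had the higher mean in HD_miR196a mice after quantile normalization, but Sox10 turned to -0.032 with median centring, and without scaling Olig1, Sox10 and Myrf were at -0.14, -0.20 and -0.089. The same 3 factors were also lower in HD_miR196a when HD_miR196a mouse 1 or HD mouse 2 was left out. The groups overlapped for each of them, and mouse 1 was the highest mouse of its group in both groups.

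Precursor genes did not share 1 pattern. Pdgfra, the receptor for platelet-derived growth factor that precursors need to divide, is the only gene of the 32 whose lowest value lay in HD_miR196a mouse 1. It measured 9.33, 10.08 and 10.19 against 10.38 and 10.05, a difference of -0.35 ± 0.31 (SE; interval -1.15 to 0.45; limma adjusted p = 0.979). Without mouse 1 of each group, a setting added after seeing the data, the difference of Pdgfra was 0.086, so its sign rests on those mice, which are also the lowest for cortical neuron genes.

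Cspg4 measured 9.09, 9.07 and 9.10 against 8.97 and 8.74, and its groups did not overlap on this scale. In the deposited intensities, HD mouse 1 (546) lay above all HD_miR196a mice (488, 509 and 533). The 3 HD_miR196a mice were close to one another here, unlike in most myelin genes, and the difference was 0.23 ± 0.11 (SE; limma adjusted p = 0.979). Gpr17, a receptor of cells that have left the precursor state but do not yet myelinate, was at 10.08, 9.59 and 9.67 against 9.66 and 9.36. In Gpr17 mouse 1 was again the highest of each group, as in the mature genes, and the difference was 0.27 ± 0.20. Pdgfra and Cspg4 are also made by cells of the vessel wall.

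The precursor list held Pdgfra, Cspg4 and Gpr17, with differences of -0.35, 0.23 and 0.27. The median group difference was 0.23 over these 3 genes and 0.24 over the 14 structural genes, and the distance between these medians was not tested. It was 0.011 with all mice and ran from -0.087 to 0.13 when single mice were left out. Each gene was set against its own mean over the 5 mice, and the median of these deviations was taken over each list. The structural median was 0.34 in HD_miR196a mouse 1 and the precursor median 0.10. In HD_miR196a mouse 3 they were -0.17 and 0.10, and in HD mouse 2 both were low, at -0.33 and -0.25. HD_miR196a mouse 2 had 0.055 and 0.075, and HD mouse 1 had 0.041 and -0.010. The structural value thus exceeded the precursor value by 0.24 in HD_miR196a mouse 1 and fell 0.27 below it (-0.27) in HD_miR196a mouse 3, a spread within 1 group that is wider than the distance between the groups. With 3 precursor genes, of which Pdgfra and Gpr17 go opposite ways in HD_miR196a mouse 1, the precursor median describes these probes only.

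**Figure D3:**
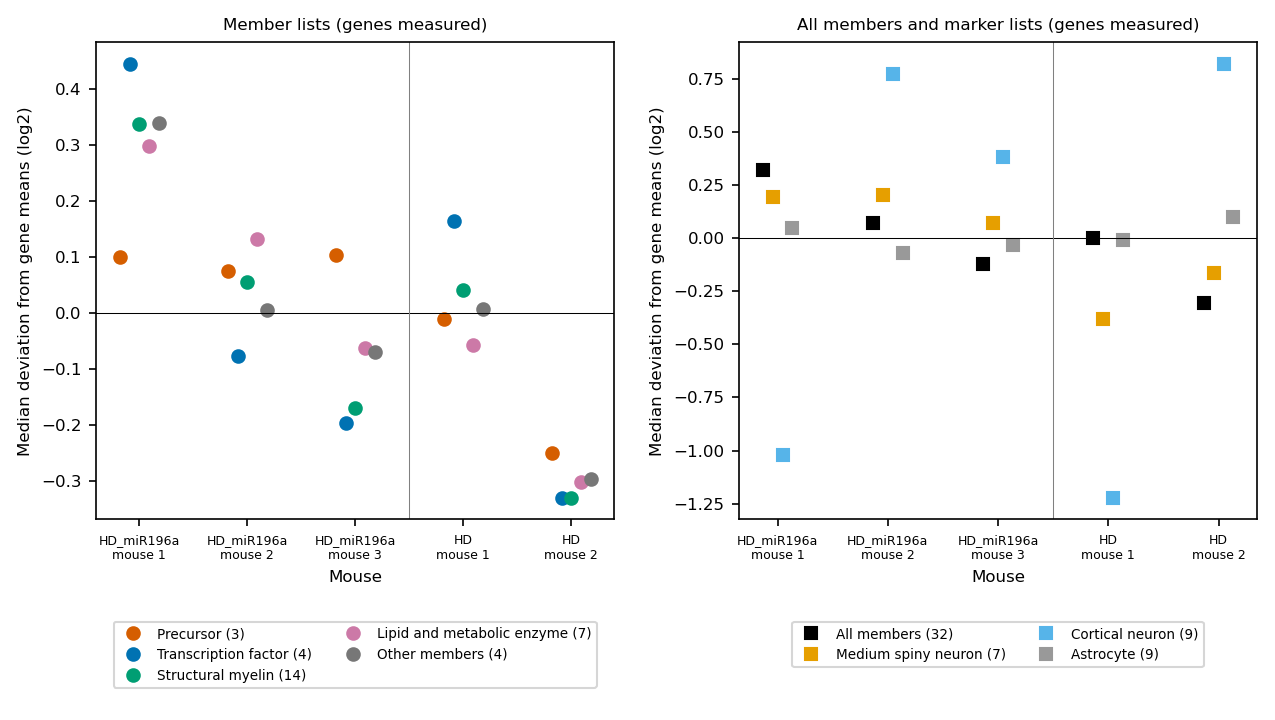
Median over each gene list of the log2 deviations from each gene's mean over 5 mice (vertical axes), for each mouse (horizontal axes), for the lists by role (left) and for all 32 genes beside neuron and astrocyte markers (right); numbers in brackets are genes measured. The structural list runs from 0.34 in HD_miR196a mouse 1 to -0.33 in HD mouse 2, and the cortical neuron list lies at -1.02 and -1.22 in mouse 1 of each group.

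Enzymes of myelin lipids and of oligodendrocyte metabolism had the higher mean in HD_miR196a mice for 7 of 7 genes, with a median difference of 0.28. Car2, a carbonic anhydrase abundant in oligodendrocytes, measured 11.88, 11.84 and 11.57 against 11.35 and 11.25. All HD_miR196a mice lay above both HD mice, and the difference of 0.46 ± 0.13 (SE; 1.38-fold; interval 0.12 to 0.81; limma adjusted p = 0.979) was larger than the range of either group. Fa2h, which makes the hydroxylated fatty acids of myelin galactolipids, was at 9.34, 9.17 and 8.92 against 8.90 and 8.55. HD_miR196a mouse 3 and HD mouse 1 were only just apart, and the difference was 0.42 ± 0.18 (SE; interval -0.057 to 0.89).

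Enpp2 encodes autotaxin, the enzyme that makes lysophosphatidic acid, and measured 12.41, 12.26 and 12.00 against 12.01 and 11.95. The lowest HD_miR196a mouse fell between the HD mice, and the difference was 0.24 ± 0.15 (SE). Qdpr, a reductase that regenerates tetrahydrobiopterin, was at 12.03, 11.90 and 11.73 against 11.79 and 11.67, a difference of 0.16 ± 0.13. Ugt8a and Gal3st1, which build galactosylceramide and add its sulfate, differed by 0.28 ± 0.27 and 0.35 ± 0.16. Aspa, which splits N-acetylaspartate, differed by 0.089 ± 0.18. The groups overlapped for these 5 enzymes.

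Among the remaining members, Lpar1, a receptor for lysophosphatidic acid, measured 10.79, 10.60 and 10.38 against 10.17 and 10.10. Its groups did not overlap and its difference was 0.45 ± 0.15 (SE; 1.37-fold; interval 0.067 to 0.84; limma adjusted p = 0.979). Trf, the iron carrier transferrin, was at 13.71, 13.41 and 13.43 against 13.46 and 13.06, a difference of 0.26 ± 0.18. Bcas1, a protein of early myelinating cells, was at 14.57, 14.19 and 14.06 against 14.16 and 13.89, a difference of 0.25 ± 0.20. In both Trf and Bcas1 HD mouse 1 lay within the range of the HD_miR196a mice. Gsn, the actin-severing protein gelsolin, differed by 0.099 ± 0.16.

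For 5 of the 32 genes the difference in favour of HD_miR196a was larger than the range of either group, against 5.26% of all genes. They were Mbp, Car2, Lpar1, Cspg4 and Gal3st1, although the groups of Gal3st1 overlapped narrowly (7.852 in HD_miR196a mouse 3, 7.857 in HD mouse 1). The gap between the 2 HD mice is the range of that group, so this rule picks genes with a gap smaller than the difference. For Mbp, Car2 and Lpar1 the gap was 0.17, 0.097 and 0.072. For 20 of the 32 genes the gap between the HD mice was larger than the difference between the groups. The share over all genes was not counted, so this cannot be called particular to the 32 genes. Among these 20, Olig1 had the widest gap at 0.66, followed by Opalin at 0.52 and by Olig2 and Mog, both at 0.50. Mobp, whose difference of 0.59 exceeded its gap, had a gap of 0.56.

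**Figure D4:**
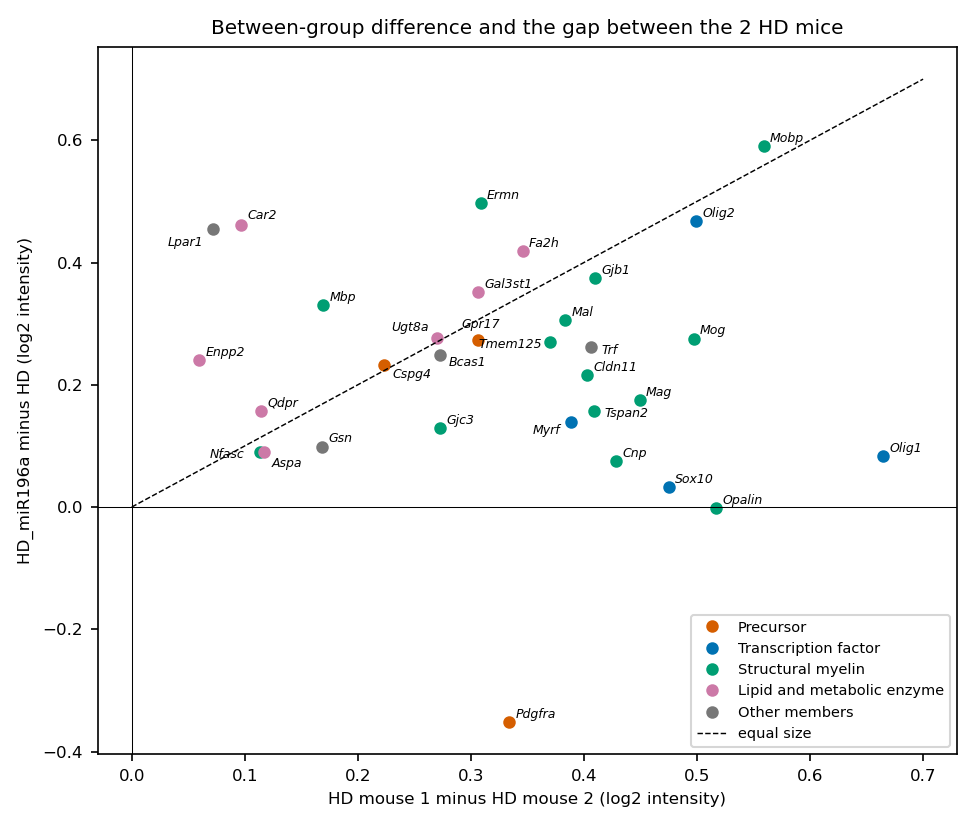
Each point is 1 gene: the gap between HD mouse 1 and HD mouse 2 (horizontal, log2) against the difference HD_miR196a minus HD (vertical, log2); the dashed line marks equal size. All points lie to the right of 0. Lpar1, Car2, Mbp, Ermn and Enpp2 lie well above the line. Olig1, Sox10, Opalin and Cnp lie far below it, as does Pdgfra, the lowest point at -0.35.

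Where a gene had further probes, they gave close values for some genes and not for others. The 3 probes of Enpp2 gave 0.24 ± 0.15, 0.26 ± 0.17 and 0.28 ± 0.15 (SE). The second probes of Sox10 and Cspg4 gave 0.0063 ± 0.34 and 0.13 ± 0.11. The dim second probes of Mbp, Myrf and Nfasc, at means of 6.17, 6.27 and 7.10, gave 0.0093 ± 0.22, 0.097 ± 0.12 and -0.054 ± 0.093, and all 3 means lie under 8.31, the background measure above. The higher level of Mbp in HD_miR196a mice was therefore seen on its bright probe only.

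Other genes of the lineage, listed beside the 32, were summarised in the same way. Of 22 further genes of mature oligodendrocytes, 18 were measured, with a median difference of 0.17. The higher mean lay in HD_miR196a mice for 15 of them (83.3%), against 48.9% of all genes. Limma called 0 of the 18, and 2 had an unadjusted p under 0.05 (11.1%), against 3.71% of all genes. Hapln2, a link protein of the matrix at nodes of Ranvier, measured 9.96, 9.65 and 9.28 against 8.83 and 8.49. Anln, an actin-binding protein, measured 10.63, 10.38 and 10.07 against 9.71 and 9.56. The groups did not overlap for these 2 genes, and their differences were 0.97 ± 0.24 and 0.72 ± 0.19 (SE, limma adjusted p = 0.979 for both). All HD_miR196a mice lay above both HD mice for 4 of the 18 genes (22.2%), against 10.0% of all genes. Groups apart in either direction made up 20.7% of all genes.

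Of 12 further precursor genes, 7 had the higher mean in HD_miR196a mice (58.3%, against 48.9% of all genes) and 5 the lower, with a median of 0.059. Cacng4, a regulatory subunit of AMPA receptors, differed by 0.33 ± 0.10 and the cadherin gene Pcdh15 by -0.34 ± 0.16. Their groups did not overlap, but their means of 7.88 and 6.76 lie under 8.31, the background measure above. Groups apart in either direction made up 16.7% of the 12, against 20.7% of all genes. Limma called 0 of the 12, and 1 had an unadjusted p under 0.05 (8.33%), against 3.71% of all genes. Of 16 genes for signals that steer differentiation, 15 were measured, and the median was 0.052. The higher mean lay in HD_miR196a mice for 10 of the 15 (66.7%), against 48.9% of all genes. Bmp4, a ligand that holds back maturation, differed by 0.33 ± 0.14 and Lif, at a mean of 3.61, under the olfactory receptor median of 4.99, by 0.36 ± 0.16. Limma called 0 of the 15, and 0 had an unadjusted p under 0.05, against 3.71% of all genes.

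Markers of other cell types did not share 1 pattern over the mice, and their part in the results was not tested. HD mouse 1 exceeded HD mouse 2 for each of the 32 genes, but not for most of the neuron markers. It did so for 16 of the 18 further mature genes and for 10 of the 12 further precursor genes. All 7 measured medium spiny neuron markers, of 10 listed, had the higher mean in HD_miR196a mice, against 48.9% of all genes, with a median of 0.45. For 6 of the 7 (85.7%) all HD_miR196a mice lay above both HD mice, against 10.0% of all genes. Limma called 0 of the 7, and 6 had an unadjusted p under 0.05, against 3.71% of all genes. HD mouse 1 lay above HD mouse 2 for 1 of these markers. Their summed intensity was 73783 to 80439 in HD_miR196a mice and 57648 to 61362 in HD mice. Over the 9 cortical markers the median difference was 0.083, and HD mouse 1 lay below HD mouse 2 for each of them. Astrocyte, microglia and endothelium lists had medians of -0.032, -0.0014 and 0.057 over 9, 8 and 9 genes. Their summed intensities were 127666 to 139568 against 127685 to 133744 for astrocytes, 15107 to 17113 against 16666 to 18904 for microglia, and 6924 to 7132 against 6867 to 6894 for endothelium. The astrocyte gene Slc1a3 was at the floor in HD mouse 1. Over 10 genes of choroid plexus and ependyma, which line the ventricle beside the striatum, the median was 0.0039, and the summed intensity was 5076 in HD_miR196a mouse 1 against 2784 to 3845 in the other mice. Ttr, the choroid plexus gene for transthyretin, was at 10.64 in that mouse and at 7.09 to 7.70 in the others. Ccdc153, a gene of ciliated cells, was higher in all HD_miR196a mice than in both HD mice, by 1.12 ± 0.18 (SE; limma adjusted p = 0.824). The mean of Ccdc153, 7.40, lies under 8.31, as did the means of 7 of these 10 genes. Ttr and Ccdc153 were singled out after their values were seen. Of 7 genes of Schwann cells, which myelinate nerves outside the brain, 5 were measured, and the mean of each lay under 8.31.

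The size of the difference rested on single mice. The median over the 32 genes, 0.24 with all mice, was 0.11 without HD_miR196a mouse 1 and 0.092 without HD mouse 2, and it was 0.41 without HD mouse 1. Over the structural genes it was 0.11, 0.031 and 0.42 in the same fits, and over the 3 precursor genes 0.12, 0.12 and 0.34. Counts of genes with the higher mean in HD_miR196a mice were 24, 23 and 31 of 32. With mouse 1 left out of both groups at once, all 32 genes had the higher mean in HD_miR196a mice and the median was 0.27. That setting compares 2 mice with 1.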

How the data were processed

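Total RNA from striatum was labelled with Cy5, and the authors deposited 1 linear intensity for each probe in each mouse, which combines 2 technical repeats per the labels. A few values lie below 0, as after background subtraction. The sources used here do not name the scanner, its software or any scaling.

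Intensities were quantile normalized between the 5 mice, floored at 1 and put on the log2 scale. Limma 3.58.1 (R 4.3.3) was fitted to all 26423 probes with lmFit and eBayes, group as the only term, 3 residual and 1.75 prior degrees of freedom, and Benjamini-Hochberg adjustment over all probes. It was tested on simulated data. Replicates are mice, and the small number of arrays limits the precision.

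Probes were named through the platform annotation: 20377 had 1 symbol and 6046 none, and of the symbols 18213 matched RefSeq directly, 2126 by an older name and 38 not at all. The 34 genes and all lists were chosen with earlier results of these data known. Values per mouse are given for the 2 brightest genes and the 2 with the smallest p of each role, and for exceptions named as such. In the further lineage lists, the 2 with the smallest p are named. Promoter and microRNA sequences are from RefSeq (GRCm38.p6). The alternatives were other scalings, floors, probe filters, variance settings, a replicate block, array weights, probe averaging and leaving out mice.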

Additional observations from a re-analysis of the deposited data

How the results depend on the processing

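None of the 32 genes was called under any alternative that was fitted for that count. Without scaling the median difference was 0.025 over the 32 genes and 0.012 over the precursor genes, and 18 genes were higher. With each mouse left out in turn, the precursor median ran from 0.12 to 0.34, and 0 to 3 probes of the array were called (3 without HD mouse 1 and 3 without HD mouse 2). Over the array, limma called 0 probes, 4 with a floor at the olfactory receptor median, 1 among probes above the lower quartile, 3 with a trended robust variance, 2 with the adjusted threshold raised to 0.10, and 1099 before any adjustment (p under 0.05). The difference between structural and precursor medians, 0.011, ran from -0.087 to 0.13 with each mouse left out. The cause of these changes was not tested. Of 480 values of single genes under alternatives, 33 changed sign, 12 of them without scaling, and none belonged to a called gene.

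With mouse number as a replicate block, 0 of the 32 genes and 0 probes were called. The medians were 0.34 over all 32 genes, 0.23 over precursor and 0.35 over structural genes, 31 genes were higher, the structural minus precursor difference was 0.12, and 14 of the 32 had an unadjusted p under 0.05, as did 2020 of all 26423 probes (7.64%). Deviations of mice with the same number correlated at 0.24 and 0.17 over probes. The labels do not say that a number marks a litter or day, and only 2 numbers are shared, so the numbers were not used as pairs.

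With 3 mice against 2, intervals of single genes are wide: the median standard error over the 32 genes was 0.20.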
